A study of Mus musculus with 6 samples.

Results

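The type I interferon-stimulated genes were examined in frontal cortex as a fixed set of 36 gene names, taken as the genes of the count table whose symbol equalled one of the names. Of the 36 names, 34 had a matching gene among the 33000 genes of the table, and Oas1b and Mx2, which had no matching symbol, were not analysed here. The low-count filter was passed by 28 of the 34, and the counts of the other 6 are given below without a test. Libraries were prepared by the standard TruSeq mRNA protocol, 1 per mouse, from 3 wild-type (WT) mice of the C57BL/6 strain and 3 mice homozygous for the GFAP-IL6 transgene, all aged 3 months. In the transgene the cytokine IL6 is placed under the promoter of Gfap, so that astrocytes produce IL6 in the brain. It is a model of IL6-driven neuroinflammation in which neither an interferon nor a virus is supplied. The study used these libraries as its reference for a 3' sequencing protocol, and the comparison made here is GFAP-IL6 against WT.

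Type I interferons bind the Ifnar1 and Ifnar2 receptor, whose kinases Jak1 and Tyk2 activate transcription factors of the cytoplasm, Stat2 among them. Together with Irf9 these form the factor ISGF3, which binds the interferon-stimulated response element (ISRE) in promoters and turns on a large antiviral program of RNA sensors, RNA-degrading enzymes, membrane proteins that hold back viral entry or release, and regulators that amplify or end the response. IL6 signals through another receptor, gp130 (Il6st), mainly to Stat3, whose dimers bind the related gamma-activated site (GAS).

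The promoters are shown first because the set is defined by a shared response and not by a shared family. RefSeq promoter windows on GRCm38.p6, each running from 250 bases before to 50 bases after a transcript start, were held for 26 of the 36 names, in 29 windows. None was held for Dhx58, Usp18, Oas1b, Oas2, Mx1, Mx2, Ifi27, Ifi27l2a, Parp14 or Rtp4. The ISRE core was searched as GAAANNGAAA and, for the other strand, TTTCNNTTTC, and the GAS core as TTCNNNGAA, which reads the same on both strands. An ISRE core was present in 14 of the 29 windows (48.3%), against 1131 of all 32851 windows (3.44%), and a GAS core in 7 of the 29 (24.1%), against 2726 of all windows (8.3%). The 8 stretches printed next, of 60 bases each and 5' to 3' on the strand of the gene, come from genes on which the results turn, namely Isg15, Ifit1 and Ifit3, which were not called, Bst2, which lay close to the threshold, and Ifitm3, Ifitm2 and Trim30a, which rose. Capitals mark the ISRE and GAS cores, with overlapping cores run together.
Isg15, chr4:156200856-156200915, minus strand: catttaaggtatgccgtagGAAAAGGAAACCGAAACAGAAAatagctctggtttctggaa
Ifit1, chr19:34640769-34640828, plus strand: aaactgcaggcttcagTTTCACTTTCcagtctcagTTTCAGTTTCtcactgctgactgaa
Ifit3, chr19:34583365-34583424, plus strand: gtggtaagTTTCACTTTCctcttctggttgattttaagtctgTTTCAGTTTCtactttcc
Ifitm3, chr7:141010700-141010759, minus strand: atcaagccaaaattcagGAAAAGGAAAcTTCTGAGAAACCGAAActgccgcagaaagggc
Ifitm2, chr7:140955973-140956032, minus strand: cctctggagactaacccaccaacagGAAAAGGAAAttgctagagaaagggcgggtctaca
Bst2, chr8:71537568-71537627, minus strand: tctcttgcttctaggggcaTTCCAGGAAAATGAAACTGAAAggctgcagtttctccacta
Trim30a, upstream start, chr7:104465195-104465254, minus strand: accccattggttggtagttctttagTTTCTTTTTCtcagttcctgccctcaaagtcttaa
Trim30a, downstream start, chr7:104446089-104446148, minus strand: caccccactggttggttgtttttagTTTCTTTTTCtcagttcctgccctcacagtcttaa
Isg15 carried 3 ISRE cores in tandem, starting 78, 72 and 66 bases before the transcript start, while Ifit1 and Ifit3 carried 2 each on the other strand. In Ifitm3 and Bst2 a GAS core shared its last bases with an ISRE core. The 2 stretches of Trim30a, from separate starts of the same gene, are close copies of each other and are not independent. Presence of the ISRE letters did not separate genes by result, as they were found in 3 of the 6 called members with a window and in 8 of the 16 tested members that were not called. For the GAS letters these counts were 1 of 6 and 5 of 16. A match describes these letters and is not evidence of binding.

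Total counts ranged from 11591066 to 16877001 in WT and from 7559524 to 11072008 in GFAP-IL6, so each GFAP-IL6 library was shallower than each WT library. As a check of the labels, the counts of Il6 were 0, 2 and 0 for the WT mice against 12, 10 and 24 for the GFAP-IL6 mice, and Gfap, the intermediate filament of astrocytes, rose with a log2 fold change of 2.84 ± 0.20 (SE). Neuronal markers were abundant in every library. WT replicate 3 held 605 CPM (counts brought to the same total in each library) of choroid plexus markers against 3.22 to 59.0 in the other libraries, and WT replicate 2 held 196 of striatal markers against 96.3 to 118. Members called numbered 8 without WT replicate 3, with 7 of the same genes, and 9 without WT replicate 2, with all 8 of the same genes, against 8 with every library.

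Part of the interferon-stimulated set was higher in GFAP-IL6 cortex and part showed no detectable change. The 3 Ifitm genes, Oas2, Lgals3bp, Trim30a, Parp14 and Irf9 rose. In contrast, Isg15, Ifit1, Ifit2, Ifit3 and Rsad2, which are commonly used as readouts of a type I interferon response, had overlapping groups and fold changes near 1. The upper fold bounds of Ifit1 (1.69), Isg15 (1.62) and Rsad2 (1.82) still exceeded the fitted fold of Irf9 (1.61). Another 9 members were not called but were higher without overlap. Oasl2, Bst2, Irf7 and Usp18 were among these 9, at log2 fold changes of 1.19, 1.12, 1.05 and 1.25. In the edgeR quasi-likelihood test with Benjamini-Hochberg adjustment over all 15341 genes tested, 8 of the 28 tested members (28.6%) were higher at an adjusted p under 0.05, where 2.65% of all tested genes were. No member was lower, by edgeR at an adjusted or an unadjusted p under 0.05 or by DESeq2 or limma-voom at an adjusted p under 0.05, where 0.209% of all tested genes were lower by edgeR at an adjusted p under 0.05. The study also asked for an absolute log2 fold change over 1 in a differentially expressed gene (DEG), and 6 members (21.4%) met both criteria as higher DEGs, against 1.36% of all tested genes. At an unadjusted p under 0.05, 16 members (57.1%) were higher, against a background of 11.1%. Every GFAP-IL6 library lay above every WT library for 17 members (60.7%), against 13.8% of all tested genes. The median log2 fold change over the 28 tested members was 0.65, with 26 fitted above 0 and 2 below, while the median over all tested genes was -0.00. The names were chosen with earlier results of these data known, so these shares and medians are descriptions and not independent evidence. The filter asked for about 0.882 CPM in at least 3 libraries, and 4 of the 28 met it only with the help of GFAP-IL6 libraries. Oas2 met it in 0 WT libraries, so it had to be higher in GFAP-IL6 to be tested at all, Ifitm1 in 1, and Irf7 and Usp18 in 2 each.

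**Figure D1:**
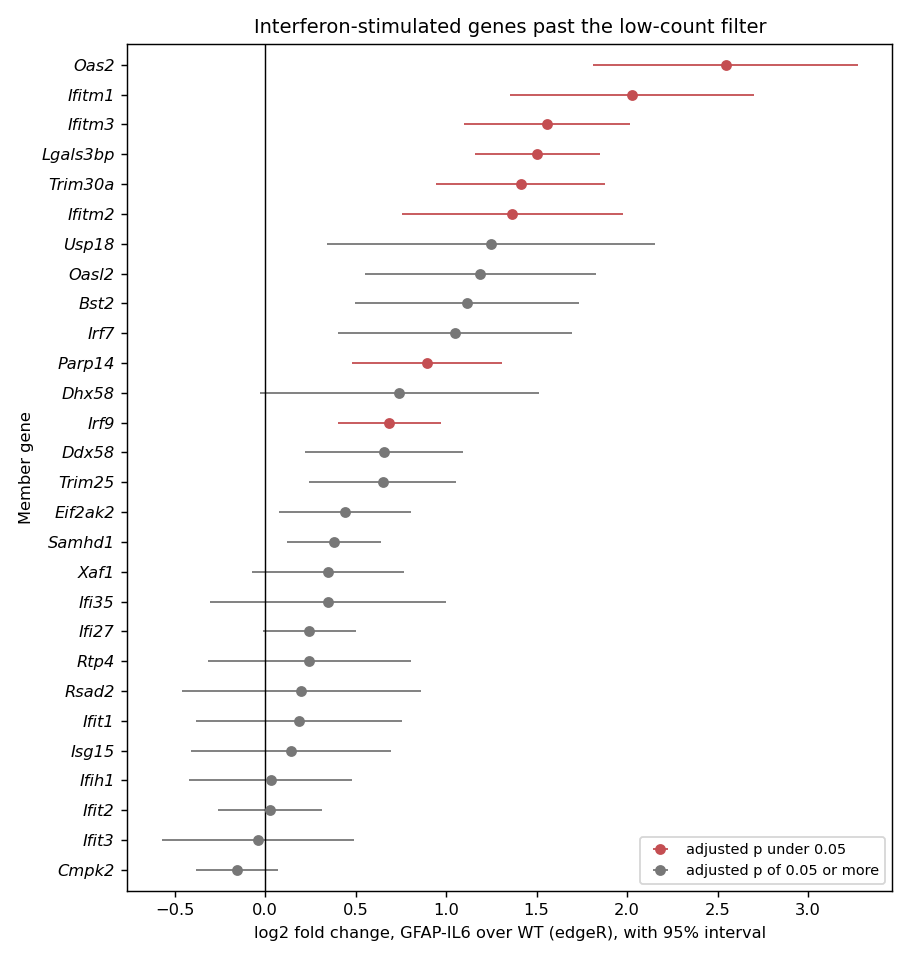
Log2 fold change of GFAP-IL6 over WT for the 28 tested members, with the 95% interval of the edgeR fit (3 mice per group), ordered by size, with genes at an adjusted p under 0.05 in red. The intervals of the 8 red genes lie above 0, from Irf9 at 0.68 to Oas2 at 2.54, while those of Ifit1, Ifit2, Ifit3, Isg15 and Rsad2 span 0.

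Levels of a single gene are given as TMM-scaled CPM, for replicates 1, 2 and 3 of a group in that order, and fold changes as edgeR log2 differences of GFAP-IL6 over WT. Among the transcription factors, Irf9 (ENSMUSG00000002325.12, plus strand of chr14:55603571-55610030), the DNA-binding subunit of ISGF3, was measured at 9.92, 9.59 and 10.8 CPM in WT and 15.3, 18.7 and 14.9 in GFAP-IL6. The groups did not overlap and WT varied little. Its log2 fold change of 0.68 ± 0.13 (SE) gave an adjusted p of 0.012, and the call was lost without GFAP-IL6 replicate 2, its highest library (adjusted p 0.0708). Irf7, the interferon-induced factor that amplifies interferon production, stood at 0.870, 1.49 and 1.505 CPM in WT and 2.51, 2.24 and 3.46 in GFAP-IL6. Although its groups did not overlap and its log2 fold change of 1.05 ± 0.30 was larger than that of Irf9, its adjusted p was 0.0852.

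The cytoplasmic RNA sensors gave no call among 3. Ddx58, which encodes RIG-I, was at 3.74, 4.71 and 4.58 CPM in WT and 5.37, 7.39 and 8.14 in GFAP-IL6, without overlap, with a log2 fold change of 0.66 ± 0.20 and an adjusted p of 0.107. Dhx58, which encodes the regulatory helicase LGP2, was at 1.39, 1.31 and 2.19 CPM in WT and 1.97, 1.98 and 4.35 in GFAP-IL6. Its groups overlapped and GFAP-IL6 replicate 3 stood apart from the others, giving a log2 fold change of 0.74 ± 0.36 (adjusted p 0.26), which was 0.27 in the leave-one-out fit that gave the smallest value. Ifih1, which encodes MDA5, was at 4.87, 7.74 and 7.34 CPM in WT and 7.97, 5.41 and 7.02 in GFAP-IL6. Its groups overlapped, and the log2 fold change of 0.03 ± 0.21 (adjusted p 0.948) had a 95% interval of 0.747 to 1.40 as a fold.

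The Ifitm genes encode small membrane proteins that block the fusion of incoming viruses with endosomes, and the 3 members lie together on chromosome 7. Ifitm3 (ENSMUSG00000025492.6, minus strand of chr7:141009586-141010770), the best studied of them, was at 4.44, 6.20 and 3.57 CPM in WT and 12.3, 12.5 and 17.4 in GFAP-IL6. The lowest GFAP-IL6 library was thus well above the highest WT library, and the log2 fold change was 1.56 ± 0.21 (adjusted p 0.000965). Ifitm1 (ENSMUSG00000025491.12, plus strand of chr7:140967221-140969825) rose from 0.870, 1.25 and 0.752 CPM in WT to 3.94, 2.77 and 5.13 in GFAP-IL6, with a log2 fold change of 2.03 ± 0.31 (adjusted p 0.00246). Both kept their call in each of the 6 fits that left out a library. Ifitm2 (ENSMUSG00000060591.8, minus strand of chr7:140954837-140955987) was at 2.61, 3.16 and 1.63 CPM in WT and 5.28, 5.14 and 8.69 in GFAP-IL6. Its log2 fold change of 1.37 ± 0.28 (adjusted p 0.0189) leaned on the lowest WT and the highest GFAP-IL6 library, and the call was lost without WT replicate 3 (adjusted p 0.0541) and without GFAP-IL6 replicate 3 (adjusted p 0.157). In GENCODE M21, 40.9% of the exonic bases of Ifitm2 are shared with Gm45717 on the same strand, a gene with no entry in the table, so the count of Ifitm2 is uncertain to that extent. The related genes Ifitm7 and Ifitm10 were tested and not called, with log2 fold changes of 0.02 ± 0.11 and -0.21 ± 0.11 (adjusted p 0.94 and 0.323).

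The Ifit genes, a cluster on chromosome 19 whose proteins bind viral RNA and stop its translation, gave no call. Ifit2 was at 11.5, 15.1 and 14.4 CPM in WT and 14.8, 13.2 and 13.9 in GFAP-IL6. The GFAP-IL6 values fell inside the WT range, and with a log2 fold change of 0.03 ± 0.13 (adjusted p 0.927) its 95% interval of 0.835 to 1.24 as a fold was among the narrower of the set. Ifit1 had a mean of 2.15 ± 0.364 CPM (SD, n = 3) in WT and 2.50 ± 0.479 in GFAP-IL6, with a fold interval of 0.766 to 1.69 (adjusted p 0.718). Ifit3 had 5.05 ± 1.61 CPM in WT and 4.97 ± 0.733 in GFAP-IL6, with a fold interval of 0.674 to 1.40 (adjusted p 0.944). The upper bounds lay under a fold of 2 for each of the 3 genes, and changes inside these intervals were not resolved. The relative Ifit3b, close in sequence to Ifit3, was also not called (log2 fold change -0.20 ± 0.24, adjusted p 0.662).

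The contrast between families did not depend on the scaling of libraries, since it can be read as a ratio within each library. The summed CPM of the 3 Ifitm genes divided by that of the 3 Ifit genes was 0.481, 0.458 and 0.260 in WT and 0.988, 1.02 and 1.39 in GFAP-IL6, with means of 0.400 ± 0.122 (SD, n = 3) and 1.13 ± 0.221. Thus the Ifitm sum was below the Ifit sum in each WT library and about level with it or above in GFAP-IL6. The same ratio for the 5 Oas family genes with counts over the Ifit genes was 0.140 ± 0.0158 in WT and 0.416 ± 0.105 in GFAP-IL6, again without overlap. A ratio shows unequal change between families, and no test was made of it.

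The Isg15 system gave no call either, but its 2 genes differed in fitted change, with a fold interval for Usp18 of 1.27 to 4.45. Isg15, a ubiquitin-like modifier that is attached to proteins during the interferon response, was at 2.35, 1.85 and 2.07 CPM in WT and 1.97, 2.64 and 2.34 in GFAP-IL6. The groups overlapped, and the log2 fold change of 0.14 ± 0.25 (adjusted p 0.778) had a fold interval of 0.754 to 1.62. Usp18, which removes Isg15 from proteins and dampens signalling at Ifnar2, was at 0.261, 1.01 and 0.940 CPM in WT and 1.25, 2.24 and 2.23 in GFAP-IL6. Its groups did not overlap, but WT replicate 1 was far lower than the other WT libraries, and the log2 fold change of 1.25 ± 0.42 had an adjusted p of 0.131.

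**Figure D2:**
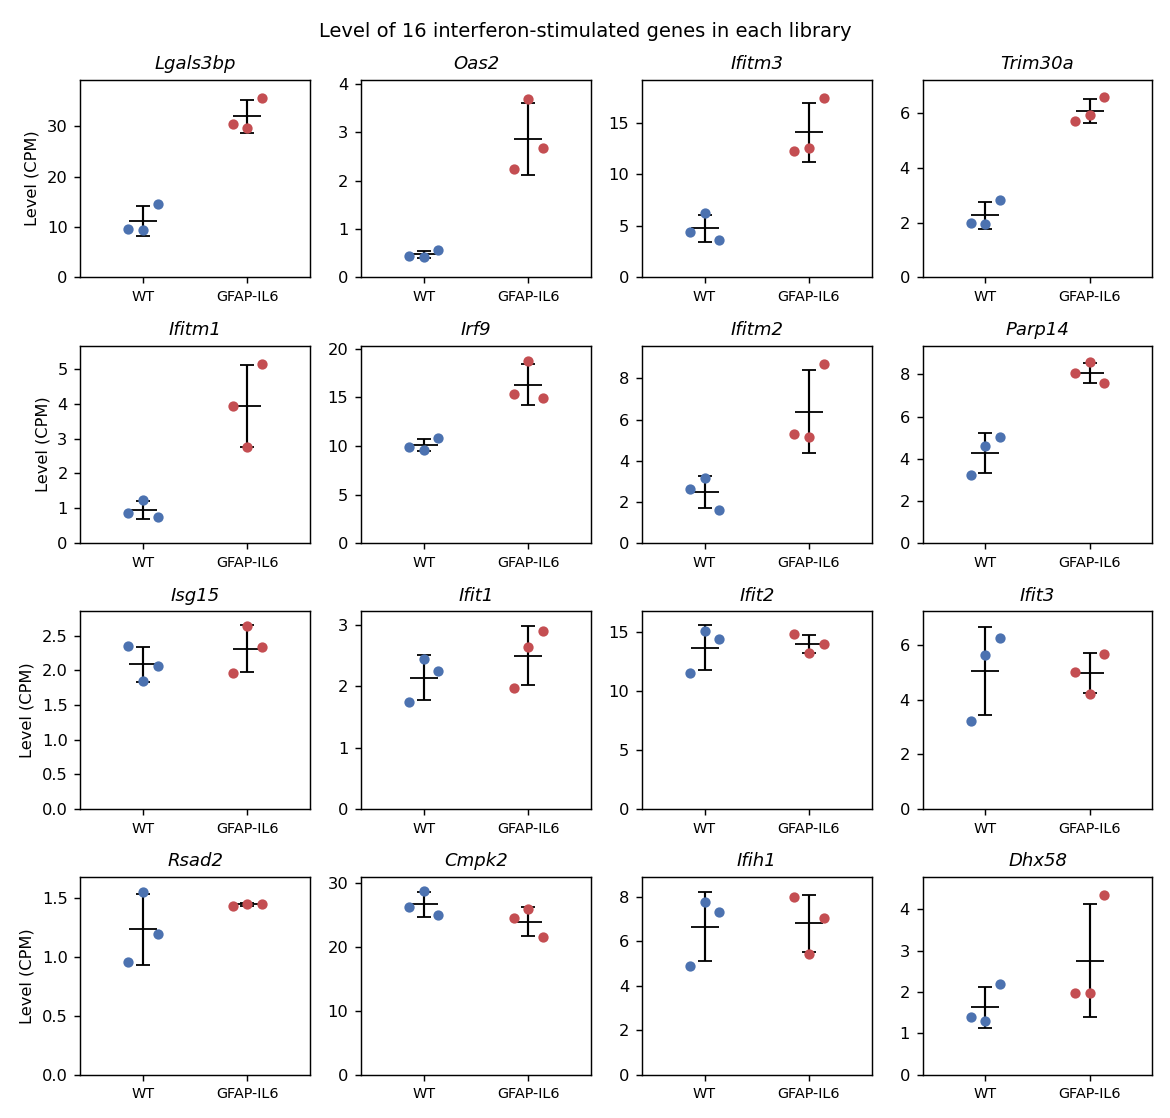
Level in CPM (vertical axis, from 0) of the 8 called members and of 8 members that were not called, in each of the 3 WT (blue) and 3 GFAP-IL6 (red) libraries, with the mean and SD in black. The groups do not overlap in the first 8 panels, and overlap in the panels of Isg15, Ifit1, Ifit2, Ifit3, Rsad2, Cmpk2, Ifih1 and Dhx58.

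The Oas enzymes sense double-stranded RNA and make the 2',5'-linked oligoadenylates that switch on RNase L. Oas2 (ENSMUSG00000032690.14, minus strand of chr5:120730333-120749853) showed the largest fold change of the tested members, from 0.435, 0.417 and 0.564 CPM in WT to 2.24, 3.69 and 2.68 in GFAP-IL6. It met the low-count filter in 0 WT libraries, so it was tested only because it was higher in GFAP-IL6. The WT libraries lay within a narrow range close to the limit of detection, and each GFAP-IL6 library was above them. Its log2 fold change was 2.54 ± 0.34, a fold of 5.83 with a 95% interval of 3.52 to 9.68 (adjusted p 0.000864), and the call held in each of the 6 fits that left out a library. Oasl2, an Oas-like protein that carries ubiquitin-like domains, was at 1.04, 2.56 and 2.01 CPM in WT and 3.58, 4.62 and 5.13 in GFAP-IL6. The groups did not overlap and the log2 fold change was 1.19 ± 0.29, but the adjusted p of 0.0519 just missed the threshold, and it was 0.0334 with DESeq2. Oas1a, Oas3 and Oasl1 did not pass the filter.

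Of the other antiviral effectors, 3 had no overlap between groups and none was called. Bst2, or tetherin, which holds budding virus at the cell surface, was at 1.13, 1.91 and 2.51 CPM in WT and 3.58, 5.01 and 3.90 in GFAP-IL6, with a log2 fold change of 1.12 ± 0.28 (adjusted p 0.0586). Samhd1, which depletes the nucleotides needed for reverse transcription, was at 15.2, 12.4 and 14.4 CPM in WT and 18.8, 18.6 and 17.1 in GFAP-IL6, a small difference of 0.38 ± 0.12 on the log2 scale (adjusted p 0.111). Eif2ak2, which encodes the kinase PKR that shuts down translation on sensing double-stranded RNA, was at 6.00, 5.54 and 7.65 CPM in WT and 8.68, 9.23 and 8.25 in GFAP-IL6 (log2 fold change 0.44 ± 0.17, adjusted p 0.174). Each of these lay above the WT range in each GFAP-IL6 library, with the largest fitted difference in Bst2.

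Rsad2, which encodes viperin, and its neighbour Cmpk2, a mitochondrial nucleotide kinase, lie side by side on chromosome 12 and are classical partners in the interferon response. Rsad2 had 1.23 ± 0.298 CPM (SD, n = 3) in WT and 1.44 ± 0.0102 in GFAP-IL6, with a fold interval of 0.726 to 1.82 (adjusted p 0.746). Cmpk2 had 26.7 ± 1.94 CPM in WT and 24.0 ± 2.22 in GFAP-IL6, with a fold interval of 0.766 to 1.05 (adjusted p 0.414). The upper bound for Cmpk2 was thus below the fold of each called member, while that for Rsad2 was not.

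Of the TRIM and PARP members 2 of 3 were called. Trim30a (ENSMUSG00000030921.14, minus strand of chr7:104409025-104465193), a restriction factor that also restrains NF-kB signalling, rose from 2.001, 1.97 and 2.82 CPM in WT to 5.73, 5.93 and 6.58 in GFAP-IL6. Its groups were tight and far apart, with a log2 fold change of 1.41 ± 0.21 (adjusted p 0.00236). Parp14 (ENSMUSG00000034422.12, minus strand of chr16:35832874-35871544), an ADP-ribosyltransferase that acts with Stat6 in IL4 signalling, rose from 3.22, 4.59 and 5.02 CPM in WT to 8.06, 8.57 and 7.58 in GFAP-IL6. Its log2 fold change of 0.89 ± 0.19 (adjusted p 0.0227) lost the call without any 1 of the GFAP-IL6 libraries, with adjusted p from 0.0899 to 0.0966. Trim25, the ubiquitin ligase that activates RIG-I, was at 5.31, 7.03 and 8.03 CPM in WT and 9.76, 9.36 and 13.2 in GFAP-IL6, without overlap (log2 fold change 0.65 ± 0.19, adjusted p 0.0897). The relative Trim30d had a log2 fold change of 1.13 ± 0.32 (adjusted p 0.0843), and the counting could have split or dropped reads that it shares with Trim30a.

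Lgals3bp (ENSMUSG00000033880.9, minus strand of chr11:118392751-118402092), a secreted glycoprotein that binds galectins, had the smallest adjusted p of the set. It was at 9.57, 9.41 and 14.6 CPM in WT and 30.5, 29.7 and 35.7 in GFAP-IL6. The lowest GFAP-IL6 library thus lay well above the highest WT library, and the log2 fold change was 1.50 ± 0.16 (adjusted p 0.000155). Ifi27, a mitochondrial protein linked to apoptosis, had 19.3 ± 2.71 CPM in WT and 23.0 ± 1.03 in GFAP-IL6, without overlap, and a log2 fold change of 0.25 ± 0.12 (adjusted p 0.261). Xaf1, an antagonist of the inhibitor of apoptosis XIAP, had a log2 fold change of 0.35 ± 0.19 (adjusted p 0.329), Ifi35 of 0.35 ± 0.30 (adjusted p 0.535) and Rtp4 of 0.24 ± 0.26 (adjusted p 0.622), each with overlapping groups. Exons of Ifi35 and Rtp4 are shared with other genes of GENCODE M21 over 16.8% and 13.9% of their bases, and whether reads were counted by strand was not stated.

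The 6 members below the filter were present at a few counts per library. For Mx1, the GTPase that gives resistance to influenza virus and is nonfunctional in C57BL/6, the counts were 3, 4 and 9 in WT against 5, 10 and 6 in GFAP-IL6. Oas1a had 7, 4 and 3 against 8, 9 and 9 counts, and Oas3 had 1, 1 and 0 against 3, 5 and 1. Since the GFAP-IL6 libraries were shallower, the CPM of Oas1a was higher in each GFAP-IL6 library (0.716 to 1.19) than in any WT library (0.188 to 0.609). Oasl1 had 2, 5 and 1 against 1, 3 and 2 counts, Ifi44 had 6, 11 and 9 against 16, 6 and 5, and Ifi27l2a had 6, 5 and 6 against 4, 6 and 8. No test was made of these 6 genes in the main comparison.

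**Figure D3:**
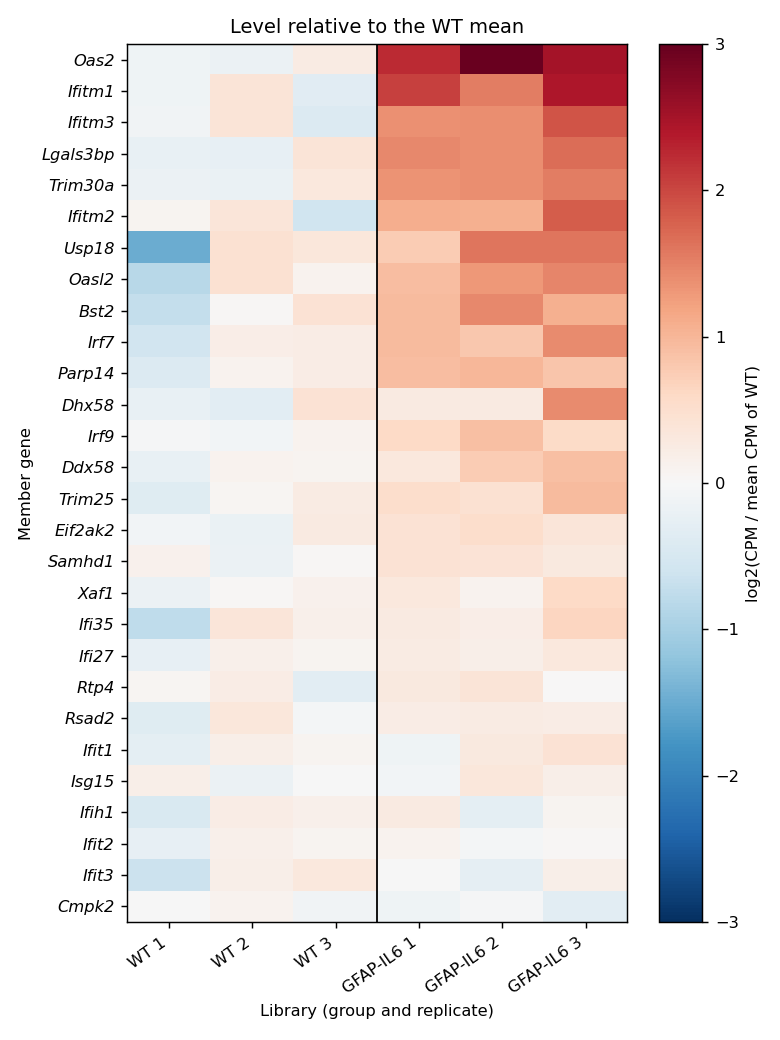
Level of the 28 tested members in each library relative to the mean of the WT libraries, as log2(CPM / WT mean), with genes ordered by log2 fold change. Red fills the upper block of the 3 GFAP-IL6 columns, from Oas2 to Parp14, fades through the middle, and is faint or absent in the lowest genes, while WT replicate 1 is the bluest WT column.

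The GFAP-IL6 mice differed among themselves in how high the set stood. GFAP-IL6 replicate 3 was the highest of its group for 15 of the 28 tested members, replicate 2 for 10 and replicate 1 for 3. Among the 8 called members these counts were 5, 3 and 0. Relative to the WT mean, the median over the members of the log2 level was 0.43, 0.50 and 0.73 in GFAP-IL6 replicates 1, 2 and 3. Among WT mice, replicate 1 was the lowest for 15 members. Summed over all 34 members, the level was 145, 171 and 173 CPM in WT and 234, 240 and 259 CPM in GFAP-IL6, so that the sums of the groups did not overlap. The sum is carried by the members with most counts, Lgals3bp, Ifi27, Cmpk2, Samhd1, Irf9 and Ifit2 among them.

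Compared per length, as TPM (counts divided by gene length and brought to a common total), the tested members spanned from 0.331 TPM for Oas2 to 52.3 TPM for Ifi27 as WT means. After Ifi27 the order in WT was Cmpk2 at 23.2 ± 1.30 TPM (SD, n = 3), Ifitm3 at 19.3 ± 5.01, Lgals3bp at 13.4 ± 3.57 and Ifitm2 at 10.9 ± 3.28, where neighbours from Cmpk2 to Ifitm2 lay within 1 SD of each other's range. In GFAP-IL6 the order became Ifi27 at 65.6 ± 3.08 TPM, Ifitm3 at 60.5 ± 12.2, Lgals3bp at 40.0 ± 3.99, Ifitm2 at 29.7 ± 9.26 and Cmpk2 at 21.9 ± 2.04. There Ifitm3 and Ifi27 did not differ beyond their spread, nor did Ifitm2 from Lgals3bp or Cmpk2, while Ifitm3 and Lgals3bp did. Oas2, despite the largest fold change of the tested members, reached a level of 2.11 ± 0.532 TPM, far below the Ifitm genes.

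The signalling genes upstream of the set were taken as a list of 34 names, of which 25 genes were tested and 5 were called, all higher, against the background of 2.65%. The number called was 3 without GFAP-IL6 replicate 3 and 10 without the low-count filter. The median log2 fold change of the 25 was 0.38. At an unadjusted p under 0.05 by edgeR, 15 of the 25 were higher, against 11.1% of all tested genes. Without overlap between groups 15 were higher, against 13.8%, and 1 was lower. No RNA of the ligands on the list was seen. Ifnb1 and 6 other type I interferon genes (Ifna1, Ifna2, Ifna4, Ifna5, Ifnk and Ifne) had 0 counts in each of the 6 libraries, which allows up to 0.179 to 0.396 CPM depending on depth. Other Ifna genes were not on the list, and this bound does not cover reads that counting may have dropped because similar genes share them. The receptor subunits were not called, with log2 fold changes of 0.21 ± 0.08 for Ifnar1 (adjusted p 0.191) and 0.45 ± 0.14 for Ifnar2 (adjusted p 0.1). Stat2, which joins Irf9 in ISGF3, was at 30.9 ± 1.74 CPM (SD, n = 3) in WT against 38.5 ± 3.20 in GFAP-IL6, without overlap between groups. Its log2 fold change of 0.32 ± 0.09 (adjusted p 0.0983) did not pass the test.

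The 5 signalling genes that rose are given next, and the source of their change was not tested. Socs3, the inhibitor induced by Stat3, had a log2 fold change of 1.92 ± 0.19 (adjusted p 7.37e-05). Irf8, a factor of the myeloid lineage and of microglia, had 1.40 ± 0.17 (adjusted p 0.000389). Tmem173, which encodes the DNA-sensing adaptor STING, had 1.38 ± 0.19 (adjusted p 0.00101), Tlr9, an endosomal DNA receptor, 1.51 ± 0.28 (adjusted p 0.00954) and Ptpn6, the phosphatase SHP-1 of blood-derived cells, 1.02 ± 0.18 (adjusted p 0.00683). Zbp1, an interferon-induced nucleic acid sensor that was named after its values were seen, did not pass the filter, its counts being 1, 0 and 0 for WT against 4, 9 and 12 for GFAP-IL6.

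The median of the members lay between those of an interferon-gamma list and an IL6-Stat3 list. Of 12 tested genes that interferon-gamma induces, mainly guanylate-binding proteins and immunity-related GTPases, 1 was called, against the background of 2.65%. It was Gbp7, with a log2 fold change of 0.71 ± 0.14 (adjusted p 0.0157), and the median of the list was 0.52. At an unadjusted p under 0.05 by edgeR, 7 of the 12 were higher, against 11.1% of all tested genes. Without overlap between groups 8 of the 12 were higher, against 13.8%. The call of Gbp7 was lost without any 1 of the GFAP-IL6 libraries and after thinning to the shallowest library. Of 13 tested genes of the IL6-Stat3 response 10 were called higher, against the background of 2.65%, with a median of 1.42. Those with the smallest p were Osmr, the oncostatin M receptor, at 2.16 ± 0.16 (adjusted p 8.36e-06), Socs3, which is in both lists, and Il4ra at 1.42 ± 0.16 (adjusted p 0.000289). Bcl3, also among the 10, met the low-count filter in 0 WT libraries. It had to be higher in GFAP-IL6 to be tested at all, so its call and its part in the median are not independent of the filter. These lists and the signalling list were chosen with earlier results of these data known, so their shares and medians are descriptions and not independent evidence. No test was made between lists.

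Markers of microglia and endothelial cells were higher together with the set, and those of other cells are given beside them. Of 8 microglial markers 7 were called higher, P2ry12 being the exception, where 2.65% of all tested genes were called higher. The summed level of the 8 was 380 to 468 CPM in WT and 767 to 880 in GFAP-IL6. Of 6 endothelial markers 3 were called higher, with sums of 111 to 133 CPM in WT and 184 to 217 in GFAP-IL6. Of 6 astrocyte markers 1 was called, Gfap, with sums of 1037 to 1316 and 1582 to 2136 CPM, and without Gfap the sums of the other 5 overlapped, at 960 to 1232 in WT and 1065 to 1267 in GFAP-IL6. None of 5 neuronal markers was called, with sums of 6738 to 7111 and 5764 to 6675. Markers of infiltrating leukocytes overlapped between groups, from 1.04 to 3.81 CPM in WT and 2.64 to 3.57 in GFAP-IL6 over 11 genes, and without Cd4, which held the most counts in WT, from 0.261 to 1.19 and 1.055 to 3.12. Cd3d was at 0 in every library, and Cd3e at 0 in WT and at 3, 1 and 2 counts in GFAP-IL6. Ccr2 and Cd8a, which did not pass the filter, were also higher without overlap as CPM, where 13.8% of all tested genes were. Their counts were 2, 11 and 8 against 14, 5 and 13 for Ccr2 and 1, 0 and 1 against 2, 1 and 3 for Cd8a. In whole cortex, more cells of a type and more RNA per cell cannot be told apart, and the part of these cell types in the change of the interferon-stimulated genes was not tested.

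**Figure D4:**
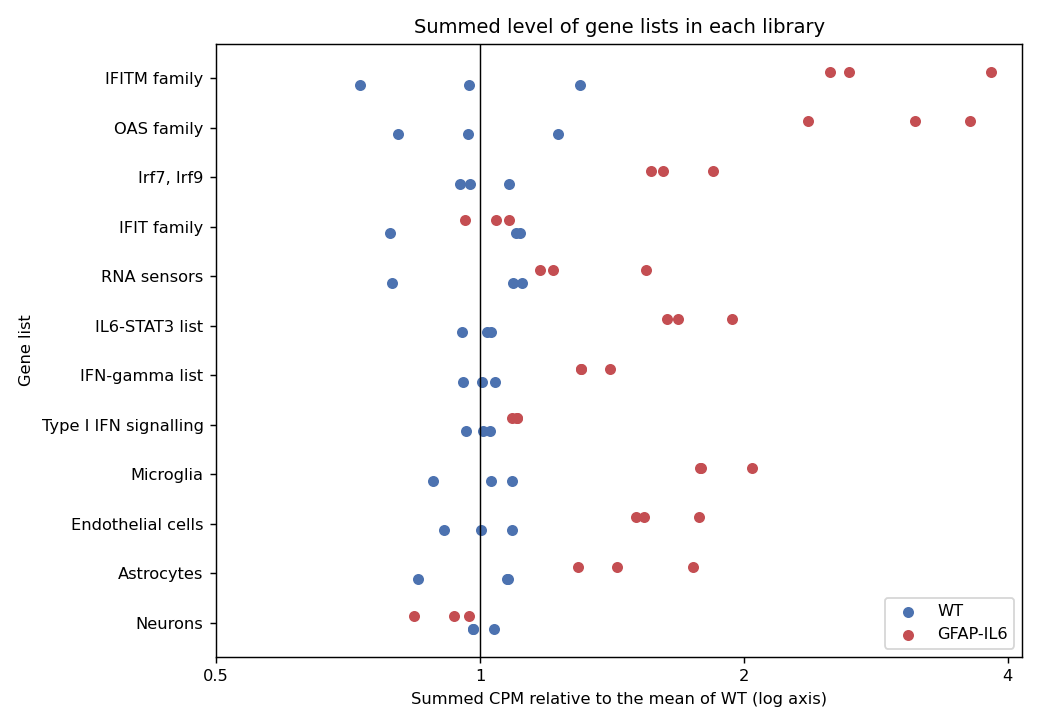
Summed CPM of member families, related gene lists and cell type markers in each of the 3 WT (blue) and 3 GFAP-IL6 (red) libraries, divided by the mean of the WT libraries, on a log axis. The Ifitm family and the Oas family lie farthest to the right in GFAP-IL6, above microglial and IL6-Stat3 genes, while the Ifit family overlaps between groups and the astrocyte sum includes Gfap.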

How the data were processed

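RNA was sequenced from frontal cortex of 3 WT and 3 homozygous GFAP-IL6 mice, and groups and replicate numbers came from the sample titles. The authors deposited raw counts per gene with a gene length in bases. Per the labels and methods, reads were aligned with STAR 2.4 to mm10 and counted on GENCODE genes with featureCounts. Whether strand was used was not stated, and duplicate reads cannot be removed without molecular identifiers, so floors (3 counts) cover counting error only. The 36 names and all lists were chosen with earlier results of these data known. edgeR 4.0.16 (R 4.3.3) was run on raw counts with TMM, filterByExpr (about 0.882 CPM in 3 libraries) and Benjamini-Hochberg adjustment over 15341 genes, and was tested on simulated data. Standard errors come from the F statistic. Each p-value sets the group difference against the spread between these mice, which edgeR estimates with information shared across genes. Named genes were members past an adjusted p of 0.05, members at an unadjusted p under 0.05 whose groups did not overlap, the sensors and factors, and from each comparison list up to 3 called genes. The alternatives were other scalings, filters, depth, DESeq2 1.42.0, limma-voom (limma 3.58.1), a replicate block and leaving out each library. Positions and exon sharing are from GENCODE M21 on GRCm38, and promoters from RefSeq on GRCm38.p6. TPM used the deposited gene lengths. Libraries of the 3' protocol were not used here.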

Additional observations from a re-analysis of the deposited data

How the results depend on the processing

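The 8 called members were called again under each alternative that kept every library (other scalings, filters, DESeq2, limma-voom, thinning to the shallowest library and the replicate block), where the number of calls ran from 8 to 14. Without the low-count filter, calls rose to 14 members, 10 of them DEGs, and 10 signalling genes, while calls over all genes rose from 439 to 1154. The replicate block gave 12 members, 9 DEGs, 7 signalling genes and 750 genes in all. Whether the numbers pair the mice was not settled. Libraries of the same number correlated at 0.12, 0.02 and 0.05 in their deviations from the group means. Not every library correlated best with its own number, as GFAP-IL6 replicate 3 correlated at 0.0514 with WT replicate 2 and at 0.0505 with WT replicate 3. Values this small cannot show or exclude an effect shared by replicates of the same number. Bst2, Oasl2, Trim25 and Usp18 were the members added by the block. Leaving out 1 library gave 6 to 10 members, 5 to 7 DEGs, 3 to 7 signalling genes and a median of 0.48 to 0.74. The lowest median and the 3 signalling calls came without GFAP-IL6 replicate 3, where calls over all genes fell to 187, and without WT replicate 1 they were 1061. Without WT replicate 1, Oas1a passed the filter and was called. Oasl2 passed the threshold in 7 alternatives, with library totals alone (adjusted p 0.0451), no filter (0.00198), DESeq2 (0.0334), the block (0.0174), thinning (0.0375) and without WT replicates 1 (0.0499) or 2 (0.011). The single interferon-gamma call, Gbp7, was lost on thinning and without any 1 GFAP-IL6 library. Signs turned for 3 members near 0. When 1 library was left out, the log2 fold change ran from -0.13 to 0.16 for Ifih1, from -0.072 to 0.10 for Ifit2 and from -0.25 to 0.14 for Ifit3, and that of Ifit3 was 0.0055 with the block and 0.056 after thinning. The cause of these changes was not tested. At this depth 9 members had under 30 counts in every library.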
